A study of Mus musculus with 6 samples.

Results

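The genes described here are 43 mouse genes of DNA replication and S phase, a list chosen by function that runs from the factors that mark replication origins to the enzymes that make and join the new strands. All 43 symbols were present in the deposited table of 78317 gene rows, each on 1 row, and all 43 were among the 13372 genes with enough reads to test. They were measured by RNA sequencing in MCEC, an immortalised cell line derived from mouse heart endothelium, in 3 libraries labelled ShFat4, in which a short hairpin RNA lowers Fat4, and in 3 libraries labelled wild type. Fat4 is an atypical cadherin that takes part in planar cell polarity and is linked to Hippo signalling. The question set by the study is what endothelial Fat4 does in tumour vessel growth and tumour immunity; the libraries here compare the line with and without the knockdown. The labels give no treatment or time, do not say whether the knockdown line was 1 clone, and name no hairpin in the control cells. Nothing in them shows separate cultures behind the replicates, so the spread that p-values rest on may be technical.

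Total counts were 10509069 to 11538010 in the knockdown libraries and 10305810 to 11870091 in the control libraries. Fat4 (ENSMUSG00000046743, GRCm39 chr3:38941089-39066134) had estimated counts of 8.5, 10 and 9 in the knockdown libraries, against 10, 22 and 31.5 in the control libraries. The library labelled control replicate 1 therefore held as few Fat4 counts as knockdown replicate 2, the highest of the knockdown libraries. By edgeR's quasi-likelihood test Fat4 fell by 1.17 on the log2 scale (SE 0.35, adjusted p = 0.0330), and it passed the threshold in 8 of 17 other settings. On the first principal component, which carried 59.13% of the variance, the knockdown libraries stood at -10.8, -11.7 and -7.6, against 3.8, 10.8 and 15.5 for control replicates 1, 2 and 3. The library labelled control replicate 1 thus lay nearest to the knockdown libraries, and counts of calls are given below with and without it.

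The labelled cell type was checked against marker genes, and these did not bear out the endothelial name in either group. Most endothelial markers were nearly absent, while the mesothelial and most of the fibroblast markers were expressed. Of 10 endothelial markers, 9 were under 1 CPM (reads of a gene scaled to library size) in both groups, and Tie1, Vwf, Erg, Cldn5 and Emcn had 0 counts in all 6 libraries, which allows up to 0.253 to 0.291 CPM (3 counts, counting error only). The summed level of the 10 endothelial markers was 7.35 to 9.28 CPM in knockdown and 7.96 to 8.83 CPM in control libraries. Of 8 leukocyte markers, 7 were under 1 CPM and 3 had no count in any library, with sums of 3.62 to 4.08 CPM in knockdown and 3.44 to 4.66 CPM in control libraries. The 8 mesothelial markers summed to 1465 to 1513 CPM in knockdown and 1652 to 1746 CPM in control libraries, and 3 of them fell (Lrrn4, Upk3b and Wt1). The 8 fibroblast markers summed to 1792 to 1956 CPM in knockdown and 2393 to 2477 CPM in control libraries. Most of that sum came from 1 gene, with a mean of 1739 CPM over the 6 libraries. Of the 8, 2 were under 1 CPM in both groups and 1 had no count in any library. Of the 6 tested, Col1a1 and Col3a1 fell and Thy1 rose. Genes for ribosomal proteins took 14.1% to 14.9% of counts in knockdown and 11.8% to 13.3% in control libraries, and mitochondrial genes took 4.49% to 4.85% in knockdown and 4.84% to 5.09% in control libraries. The mesothelial, fibroblast and ribosomal protein values did not overlap between the groups, and their part in the results below was not tested; the endothelial, leukocyte and mitochondrial values overlapped.

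DNA replication is prepared in G1, when the origin recognition complex, Cdc6 and Cdt1 load the ring-shaped MCM helicase onto origins. In S phase Cdc45 and the GINS complex turn MCM into a moving helicase, primase and DNA polymerase alpha lay down primers, and polymerases delta and epsilon extend them on the PCNA clamp, which the RFC clamp loader places on DNA. Many of these genes are transcribed ahead of S phase by E2F factors, whose sites in their promoters are a textbook feature. Endothelial cells of adult vessels rarely divide, whereas a cultured line cycles and so expresses the whole set.

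Promoter sequence was available from RefSeq (GRCm38.p6, an older build than the GRCm39 of the count table) for 35 of the 43 genes. Each window ran from 250 bases before to 50 bases after an annotated start. Where a gene had several, the first listed was used, which need not be its main start. The E2f1 window reads as protein-coding sequence, so it may not hold the E2f1 promoter. Ccne2 was among the 8 genes with no window in that table. These windows were searched on both strands for E2F-type letters (TTTCCCGC, TTTCGCGC, TTTGCCGC or TTTGGCGC), forms that can overlap one another. At least 1 of them stood in 12 of 35 windows (34.3%), against 4.57% of the 8914 tested symbols with a window and 2.32% of all 27025 windows. With TTTCGCGC and TTTGGCGC alone the share was 9 of 35 (25.7%), against 1.81% of tested symbols. CCAAT, the core of the sites bound by the NF-Y factor, stood in 22 of 35 (62.9%), against 39.7% of tested symbols, and 8 windows held both. A match describes the letters in the window and shows no binding.

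The following 30-base stretches show E2F-type letters in genes of the licensing, helicase, priming and clamp loader groups, written 5′ to 3′ on the strand of the gene with the letters of 1 match in capitals (some stretches hold a further match in lower case); where the capitals start with GC, the match is on the opposite strand.
Orc1, chr4:108579416-108579445, plus strand: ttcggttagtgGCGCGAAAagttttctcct
Cdc6, chr11:98908002-98908031, plus strand: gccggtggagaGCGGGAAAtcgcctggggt
Cdt1, chr8:122568035-122568064, plus strand: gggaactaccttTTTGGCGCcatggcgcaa
Mcm5, chr8:75109345-75109374, plus strand: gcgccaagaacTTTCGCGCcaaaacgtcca
Mcm7, chr5:138171849-138171878, minus strand: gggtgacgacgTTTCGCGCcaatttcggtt
Pola1, chrX:93632275-93632304, minus strand: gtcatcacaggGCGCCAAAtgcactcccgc
Rfc3, chr5:151651200-151651229, minus strand: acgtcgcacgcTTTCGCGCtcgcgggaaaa

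Of the 5 called members with a window, 2 held CCAAT (40.0%), namely Pcna and Prim1, against 39.7% of tested symbols. The windows of Tyms and Rfc4, which also rose, held neither CCAAT nor E2F-type letters. The 250 bases before the start used for Pcna and for Prim1, which rose in the knockdown, held no E2F-type letters. They did hold a CCAAT box (CCAAT, or ATTGG on the opposite strand). Those of Mcm6, which did not pass the test, held 3 E2F-type matches, 2 of which overlap, and 2 CCAAT boxes. No other member had as many E2F-type matches. All of these letters are in capitals below.
Pcna, chr2:132253181-132253430, minus strand: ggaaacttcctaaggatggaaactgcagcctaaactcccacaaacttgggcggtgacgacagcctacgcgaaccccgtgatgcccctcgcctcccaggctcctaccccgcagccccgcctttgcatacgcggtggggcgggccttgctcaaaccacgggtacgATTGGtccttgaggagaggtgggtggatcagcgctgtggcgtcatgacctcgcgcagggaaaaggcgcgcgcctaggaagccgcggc
Prim1, chr10:128014965-128015214, plus strand: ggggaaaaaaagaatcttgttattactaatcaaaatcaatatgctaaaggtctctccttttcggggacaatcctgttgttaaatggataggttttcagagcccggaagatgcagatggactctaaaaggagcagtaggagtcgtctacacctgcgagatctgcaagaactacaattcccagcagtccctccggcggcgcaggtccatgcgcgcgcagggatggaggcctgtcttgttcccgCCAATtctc
Mcm6, chr1:128359706-128359955, minus strand: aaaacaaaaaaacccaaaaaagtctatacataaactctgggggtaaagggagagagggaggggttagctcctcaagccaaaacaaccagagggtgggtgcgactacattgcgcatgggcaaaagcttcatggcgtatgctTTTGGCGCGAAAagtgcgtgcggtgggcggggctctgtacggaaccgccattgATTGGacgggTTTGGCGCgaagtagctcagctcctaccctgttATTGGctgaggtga

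The replication genes as a set stayed close to their control level. By edgeR's quasi-likelihood test, adjusted over all 13372 genes at 0.05, 5 of the 43 genes rose in the knockdown (Pcna, Prim1, Tyms, Ccne2 and Rfc4), 1 fell (Cdt1) and 37 did not pass. The 6 called genes were 14.0% of the 43, against 17.4% of all genes tested (8.94% higher and 8.44% lower) and 21.2% of the 8532 genes within the same range of mean CPM (10.6% in each direction). In this fit the share of called genes was thus no higher in the list than in the background, which was not so in every other setting (below). The median log2 fold change of the 43 genes was -0.015 (range -0.29 to 0.44), with 19 positive and 24 negative values, against a median of -0.012 over all genes; the median absolute log2 fold change was 0.14 in the list and 0.15 over all genes.

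No member differed by as much as 1.5-fold: the highest fold change was 1.36 (Prim1). The 43 genes together took 0.448%, 0.432% and 0.450% of counts in knockdown replicates 1, 2 and 3, against 0.445%, 0.462% and 0.472% in control replicates 1, 2 and 3. Their summed TMM-scaled level was 4610, 4444 and 4528 CPM in the knockdown libraries, against 4449, 4537 and 4559 CPM in the control libraries, so the groups overlapped. In these bulk libraries a change in the share of cells in S phase and a change in RNA per cell cannot be told apart.

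**Figure D1:**
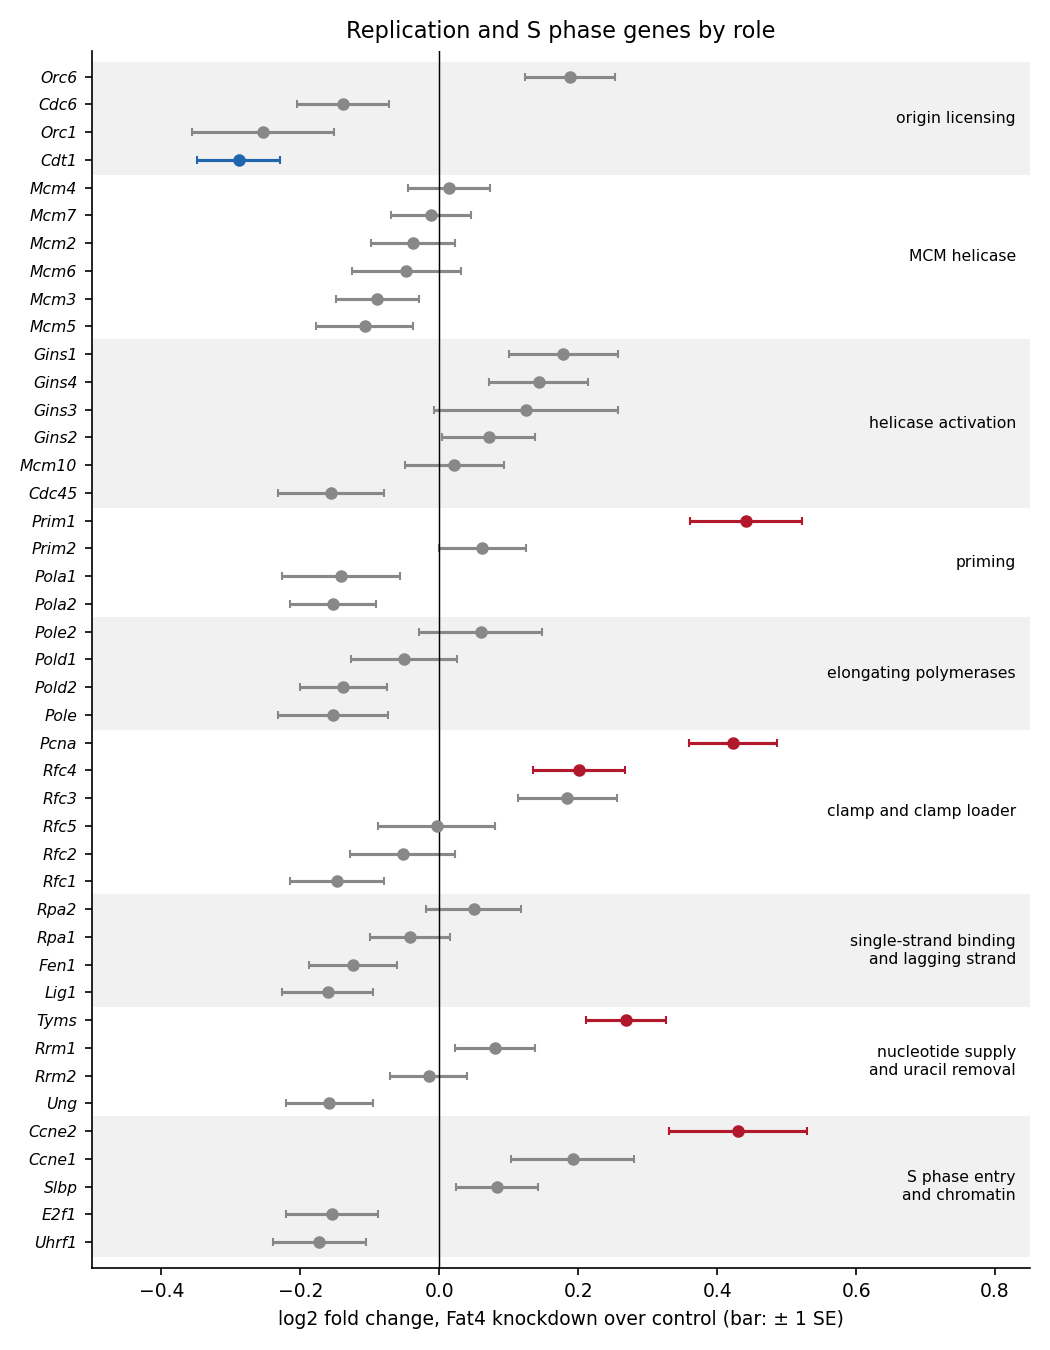
Log2 fold change of each of the 43 genes, knockdown over control (x axis), in rows grouped by role; bars are 1 SE, red marks genes that rose, blue the gene that fell and grey those that did not pass edgeR's test. The 37 genes that did not pass lie between -0.25 and 0.19, and the 6 MCM genes between -0.11 and 0.01.

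The SE of the log2 fold change was 0.06 to 0.13 (median 0.07), highest for Gins3, and the lowest count of a member in any library was 82. For the 37 genes that did not pass, log2 fold changes lay between -0.25 and 0.19, edgeR adjusted p-values between 0.0556 and 0.983, and the 95% intervals of the log2 fold change all lay between -0.47 and 0.40. Before adjustment, 18 of the 43 genes had edgeR p-values under 0.05, against 4171 of all 13372 genes tested, so this share was higher in the list. The 3 knockdown values lay entirely above the 3 control values for 8 of the 43 genes and entirely below for 10, with 25 overlapping. Over all genes tested, 17.4% lay entirely above and 17.5% entirely below (34.9% in all). These shares too were higher in the list, only slightly so for the genes above, and the differences were not tested.

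Without the library labelled control replicate 1, 6 members rose and 6 fell, against 22.6% of all genes then called (11.9% higher and 10.7% lower). The genes that joined the calls were Gins4 among the higher, and Cdc6, Cdc45, Pola2, E2f1 and Uhrf1 among the lower; these were singled out after their values were seen. With scaling by library size alone, 4 members rose and 8 fell, against 19.4% of all genes (6.38% higher and 13.0% lower, that is 853 higher and 1740 lower genes in place of 1195 and 1129). Without the library labelled control replicate 2, 3 members rose and 1 fell, against 7.56% of all genes called (3.87% higher and 3.69% lower). With DESeq2, 4 members rose and 1 fell, against 11.2% of all genes (6.63% higher and 4.58% lower). A further setting corrected for the GC content of transcripts and the exon length of genes. With it, 4 members rose and 1 fell, against 12.5% of all genes (6.91% higher and 5.6% lower). The share called was thus lower in the list than over all genes with this correction. It was higher in the list in the other settings of this paragraph, though only slightly with DESeq2.

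Origin licensing comprised Orc1 and Orc6, subunits of the origin recognition complex, and the loading factors Cdc6 and Cdt1. Cdt1 (ENSMUSG00000006585, GRCm39 chr8:123294754-123300293) brings MCM to origins and is kept in check outside G1 by geminin and by degradation. It had 156.5, 156.0 and 172.9 CPM in the knockdown libraries, against 194.4, 203.4 and 195.1 CPM in the control libraries. All 3 knockdown values were below all 3 control values. The mean was 162 ± 9.66 CPM in knockdown and 198 ± 5.01 CPM in control libraries (SD, n = 3 each), and Cdt1 fell by 0.29 on the log2 scale (SE 0.06, edgeR adjusted p = 0.0044). It passed in 17 of 18 other settings, and without the library labelled control replicate 1 the log2 fold change was -0.30.

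Orc6, the licensing gene with the highest count, had 222.8, 216.3 and 191.5 CPM in knockdown and 176.3, 191.8 and 185.2 CPM in control libraries. Knockdown replicate 3 lay just under control replicate 2, so the groups overlapped. Its log2 fold change of 0.19 (SE 0.06) did not pass (edgeR adjusted p = 0.0556), although it did in 4 of 18 other settings. Orc1 had 13.7, 12.3 and 10.98 CPM in knockdown and 14.4, 15.0 and 14.8 CPM in control libraries, with no overlap and a log2 fold change of -0.25 (SE 0.10, edgeR adjusted p = 0.102). Cdc6 had a log2 fold change of -0.14. The 4 licensing genes thus had values in both directions, with a median of -0.20.

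The 6 subunits of the MCM helicase, Mcm2 to Mcm7, were at nearly the same level in both groups. Mcm2, the most highly counted, had 290.0, 267.8 and 296.2 CPM in knockdown and 274.2, 301.4 and 301.0 CPM in control libraries. The 6 genes summed to 1179, 1084 and 1182 CPM in knockdown and 1131, 1181 and 1227 CPM in control libraries. In all 6 genes the groups overlapped, log2 fold changes lay between -0.11 and 0.01 (median -0.04), and none reached an edgeR p under 0.05 even before adjustment. After GC and length correction the log2 fold changes of Mcm2 (0.05) and Mcm7 (0.06) were positive and that of Mcm4 (-0.03) negative, so their directions depend on it. The 95% intervals ran from -0.26, the lower bound of Mcm5, to 0.14, the upper bound of Mcm4.

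Helicase activation was represented by Cdc45, by Gins1, Gins2, Gins3 and Gins4, which form the GINS complex, and by Mcm10, which helps the helicase to start. None of the 6 passed, and their median log2 fold change was 0.10. Gins2 had 135.8, 127.2 and 128.0 CPM in knockdown and 135.8, 118.7 and 117.9 CPM in control libraries; knockdown replicates 2 and 3 lay above control replicates 2 and 3 but below control replicate 1. The other GINS genes had log2 fold changes of 0.18 (Gins1), 0.12 (Gins3) and 0.14 (Gins4), and Mcm10 had 0.02. Cdc45 had -0.16, with 47.9, 43.8 and 43.01 CPM in knockdown and 44.96, 51.8 and 53.1 CPM in control libraries. Gins1 was the gene of this group without overlap. Of the exon bases of Gins2, 67.3% are shared with Gse1, a protein-coding gene on the opposite strand with a mean count of 335.

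Priming rests on the 4 subunits of the primase and polymerase alpha complex: Prim1, the catalytic primase, its partner Prim2, the polymerase Pola1 and the accessory subunit Pola2. Prim1 (ENSMUSG00000025395, GRCm39 chr10:127851041-127865906) had 53.7, 56.1 and 55.1 CPM in the knockdown libraries, against 45.1, 41.7 and 35.1 CPM in the control libraries. All 3 knockdown values were above all 3 control values, among which control replicate 3 was lowest. The mean was 55.0 ± 1.20 CPM in knockdown and 40.6 ± 5.08 CPM in control libraries (SD, n = 3 each), and Prim1 rose by 0.44 on the log2 scale (SE 0.08, edgeR adjusted p = 0.00229), a call kept in all 18 other settings with log2 fold changes of 0.34 to 0.52.

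The other 3 subunits of the same complex did not pass. Pola2 had 141.8, 135.6 and 142.4 CPM in knockdown and 145.3, 156.3 and 165.0 CPM in control libraries, without overlap, and its log2 fold change was -0.15 (SE 0.06, edgeR adjusted p = 0.102). Pola1 had 17.1, 17.0 and 16.3 CPM in knockdown and 18.3, 18.7 and 18.7 CPM in control libraries, with a log2 fold change of -0.14. Prim2, in which the groups overlapped, had 0.06. The 95% interval of Prim1 (0.27 to 0.61) did not meet those of Prim2 (-0.07 to 0.20), Pola1 (-0.32 to 0.04) and Pola2 (-0.28 to -0.02); the differences between genes were not themselves tested, here or for the clamp loader below.

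Of the elongating polymerases, Pold1 and Pole are catalytic subunits and Pold2 and Pole2 their accessory subunits. None passed, and the median log2 fold change was -0.09. Pold2 had 158.3, 142.0 and 141.5 CPM in knockdown and 155.4, 166.8 and 164.1 CPM in control libraries, where knockdown replicate 1 lay above control replicate 1. Pole had 25.1, 24.6 and 26.6 CPM in knockdown and 27.1, 30.2 and 27.5 CPM in control libraries, without overlap and with a log2 fold change of -0.15 (edgeR adjusted p = 0.196). Pold1 had -0.05 and Pole2 had 0.06. The exons of Pole2 share 245 bases with a second gene on the same strand, Gm49384, and its count was not whole in 4 of the 6 libraries.

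The clamp and its loader held the smallest p-value of the list. Pcna (ENSMUSG00000027342, GRCm39 chr2:132091082-132095234) encodes the ring that tethers polymerases to DNA and is a common marker of cycling cells. It had 263.6, 259.8 and 242.4 CPM in the knockdown libraries, against 206.2, 182.6 and 182.6 CPM in the control libraries. The lowest knockdown value was well above the highest control value. The mean was 255 ± 11.3 CPM in knockdown and 191 ± 13.6 CPM in control libraries (SD, n = 3 each), and Pcna rose by 0.42 on the log2 scale (SE 0.06, edgeR adjusted p = 0.000582). It passed in all 18 other settings, with log2 fold changes of 0.33 to 0.49 and 0.49 without the library labelled control replicate 1. Of its 2400 exon bases, 499 also belong to AV099323, a long non-coding RNA on the opposite strand with a mean count of 14.8.

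Rfc4, a small subunit of the clamp loader (ENSMUSG00000022881, GRCm39 chr16:22932693-22946487), had 51.8, 55.5 and 51.6 CPM in knockdown and 48.4, 45.9 and 44.0 CPM in control libraries, without overlap. Its mean was 53.0 ± 2.22 CPM in knockdown and 46.1 ± 2.17 CPM in control libraries (SD, n = 3 each), and it rose by 0.20 on the log2 scale (SE 0.07, edgeR adjusted p = 0.0468). The call was lost in 12 of 18 other settings, and after GC and length correction the log2 fold change was 0.04 (edgeR adjusted p = 0.699). Its exons share 194 bases with Eif4a2, a translation factor gene on the opposite strand with a mean count of 2157.

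The other clamp loader subunits did not pass. Rfc3 had 83.5, 74.1 and 69.0 CPM in knockdown and 67.0, 64.8 and 67.5 CPM in control libraries, without overlap (log2 fold change 0.18, edgeR adjusted p = 0.0849). Rfc1, the large subunit, had a log2 fold change of -0.15, Rfc2 of -0.05 and Rfc5 of 0.00, each with overlapping groups. The 95% interval of Pcna (0.29 to 0.56) did not meet those of Rfc1 (-0.29 to -0.0033), Rfc2 (-0.21 to 0.11) and Rfc5 (-0.18 to 0.18), and it met that of Rfc3 (0.03 to 0.33) and that of Rfc4 (0.06 to 0.34).

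Single-stranded DNA behind the helicase is covered by replication protein A, here Rpa1 and Rpa2, and the lagging strand is finished by the flap nuclease Fen1 and the ligase Lig1. None of the 4 passed, with a median log2 fold change of -0.08. Rpa1 had 142.0, 145.6 and 145.5 CPM in knockdown and 144.5, 155.1 and 146.3 CPM in control libraries. Lig1 had 74.6, 85.9 and 78.4 CPM in knockdown and 91.3, 87.7 and 88.1 CPM in control libraries, without overlap, and its log2 fold change was -0.16 (SE 0.07, edgeR adjusted p = 0.102). Fen1 likewise did not overlap, with a log2 fold change of -0.12 (edgeR adjusted p = 0.195), but 84.2% of its exon bases are shared with other genes. Of these, 1909 bases belong to Gm10143, a long non-coding RNA with a mean count of 3.17. A further 130 belong to Tmem258, with a mean count of 4148, and both genes lie on the opposite strand. Rpa1 and Rpa2 overlapped between the groups.

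Nucleotide supply comprised Tyms, thymidylate synthase, and Rrm1 and Rrm2, the subunits of ribonucleotide reductase; Ung removes uracil that has entered DNA. Tyms (ENSMUSG00000025747, GRCm39 chr5:30263200-30278615) had 163.0, 155.7 and 159.3 CPM in the knockdown libraries, against 129.1, 137.6 and 130.1 CPM in the control libraries. The groups did not overlap, and the spread within each was small beside the gap between them. The mean was 159 ± 3.66 CPM in knockdown and 132 ± 4.64 CPM in control libraries (SD, n = 3 each), and Tyms rose by 0.27 on the log2 scale (SE 0.06, edgeR adjusted p = 0.00543), passing in all 18 other settings. Its exons share no base with another gene, but its count was not whole in 5 of the 6 libraries.

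Ribonucleotide reductase showed no such call. Rrm1, the most highly counted gene of the group, had 292.9, 290.0 and 312.3 CPM in knockdown and 273.3, 276.8 and 296.7 CPM in control libraries, and control replicate 3 lay above knockdown replicates 1 and 2. Rrm2 had 148.3, 143.8 and 146.3 CPM in knockdown and 146.0, 148.5 and 148.6 CPM in control libraries, with a log2 fold change of -0.02 (95% interval -0.13 to 0.10). Ung had 100.5, 95.03 and 91.8 CPM in knockdown and 106.2, 104.0 and 110.4 CPM in control libraries, without overlap, and its log2 fold change of -0.16 (SE 0.06) did not pass (edgeR adjusted p = 0.0933).

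The last group joined genes of S phase entry and chromatin. Ccne2 (ENSMUSG00000028212, GRCm39 chr4:11191351-11204779) encodes cyclin E2, which drives the kinase Cdk2 at the start of S phase. It had 30.8, 35.8 and 30.8 CPM in the knockdown libraries, against 28.4, 22.6 and 21.6 CPM in the control libraries. The groups did not overlap, with control replicate 1 nearest to the knockdown values. The mean was 32.5 ± 2.85 CPM in knockdown and 24.2 ± 3.66 CPM in control libraries (SD, n = 3 each), and Ccne2 rose by 0.43 on the log2 scale (SE 0.10, edgeR adjusted p = 0.0084). It passed in 15 of 18 other settings; without knockdown replicate 2 its edgeR adjusted p was 0.0619 and without control replicate 2 it was 0.0561, while without control replicate 1 the log2 fold change was 0.56. Its exons share 609 bases with Ints8 on the opposite strand, which had a mean count of 425.5.

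Ccne1, the other cyclin E gene, had 22.7, 25.6 and 24.9 CPM in knockdown and 21.1, 23.3 and 19.6 CPM in control libraries, with overlap, and its log2 fold change of 0.19 (SE 0.09) did not pass (edgeR adjusted p = 0.151). Uhrf1, which binds newly copied, hemimethylated CpG sites, had 96.8, 111.9 and 106.5 CPM in knockdown and 112.8, 120.0 and 122.1 CPM in control libraries. The groups did not overlap, and the log2 fold change was -0.17 (SE 0.07, edgeR adjusted p = 0.088). E2f1, an activating E2F factor, had 55.8, 53.6 and 52.9 CPM in knockdown and 56.5, 64.6 and 59.4 CPM in control libraries, also without overlap (log2 fold change -0.15, edgeR adjusted p = 0.124). Slbp, which binds the stem-loop of histone mRNAs, had a log2 fold change of 0.08.

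**Figure D2:**
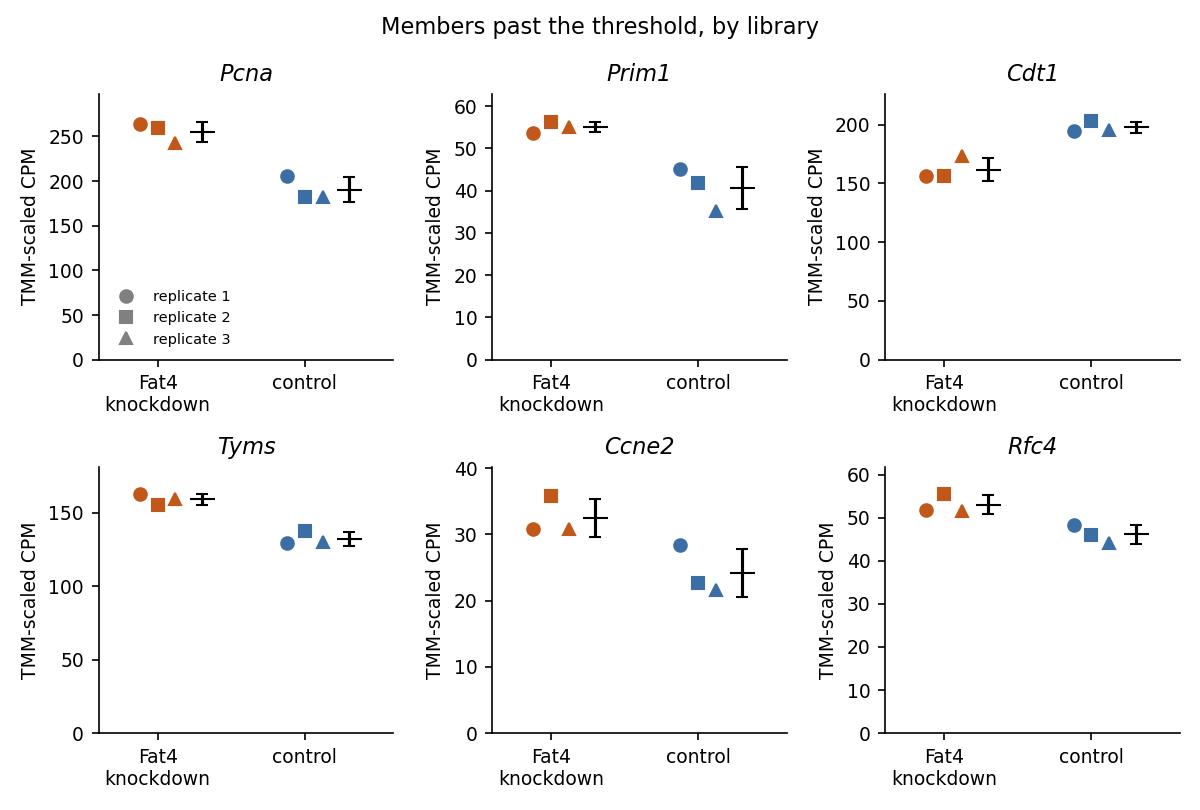
TMM-scaled CPM (y axis, from 0) of the 6 genes past the threshold in each library, knockdown to the left of control, with symbols for the replicate numbers and black marks for the mean ± SD (n = 3). Pcna, Prim1, Tyms, Ccne2 and Rfc4 lie higher in the knockdown libraries and Cdt1 lower, with no overlap between groups; the gap is narrowest in Ccne2 and Rfc4.

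**Figure D3:**
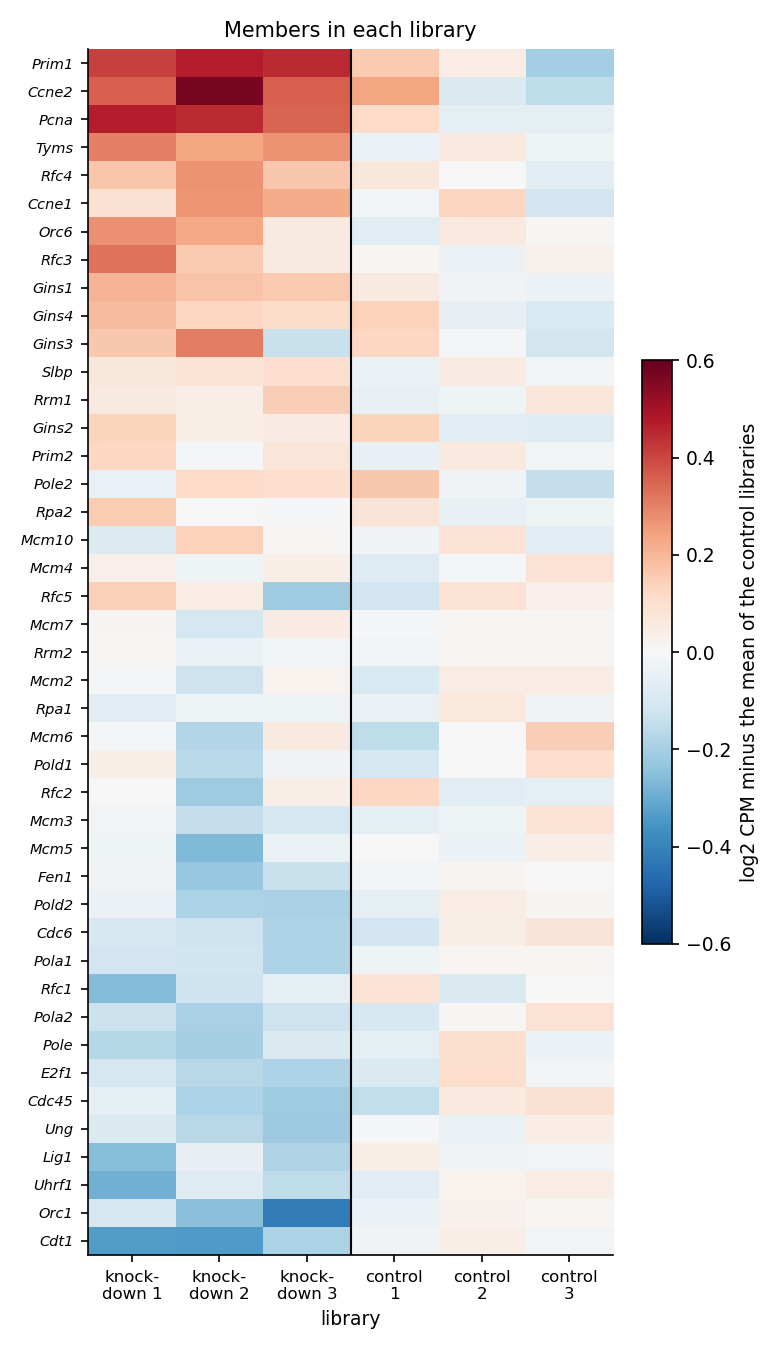
Log2 CPM of each of the 43 genes in each library minus its mean over the 3 control libraries (colour), with genes in rows ordered by fold change and libraries in columns. The rows at both ends keep 1 colour across the knockdown columns, while most rows between them are pale and mixed; the median over the genes is 0.00, -0.04 and -0.01 in knockdown replicates 1, 2 and 3, against -0.02, 0.01 and 0.00 in control replicates 1, 2 and 3.

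The genes with E2F-type letters in the promoter window were set beside those without, as a description. The 12 with such letters had a median log2 fold change of -0.07 (range -0.29 to 0.18), and 1 of them fell (Cdt1). The 23 without had a median of -0.015 (range -0.17 to 0.44), and 4 of them rose (Pcna, Prim1, Tyms and Rfc4). Over all genes tested, 8.94% rose and 8.44% fell. These calls are few, Rfc4 lost its call in 12 of 18 other settings, and the difference between the groups was not tested. The letters used here are 4 exact forms, so a window without them can still hold other E2F sites. A window at another start, as may be so for E2f1, can also miss the promoter.

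Levels per length were compared across the genes as CPM per kilobase of exon. In the control libraries they differed by 40.6 times between the highest and the lowest member. At the high end Pcna stood at 106 CPM per kilobase in knockdown and 79.4 in control libraries, Orc6 at 85.1 in knockdown and 74.7 in control libraries, and Pold2 at 77.7 in knockdown and 85.5 in control libraries. At the low end Pola1 stood at 1.91 CPM per kilobase in knockdown and 2.11 in control libraries, and Pole at 2.28 in knockdown and 2.53 in control libraries. Subunits of 1 complex could thus be far apart on this scale, as with Prim1 (14.2 in knockdown and 10.5 in control libraries) and Pola1. The length is that of all annotated exon bases of a gene merged, so it can exceed the length of any 1 transcript and differs with the annotation. The labels do not say whether reads cover whole transcripts or mainly an end. For both reasons a level per length need not be a level per transcript.

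**Figure D4:**
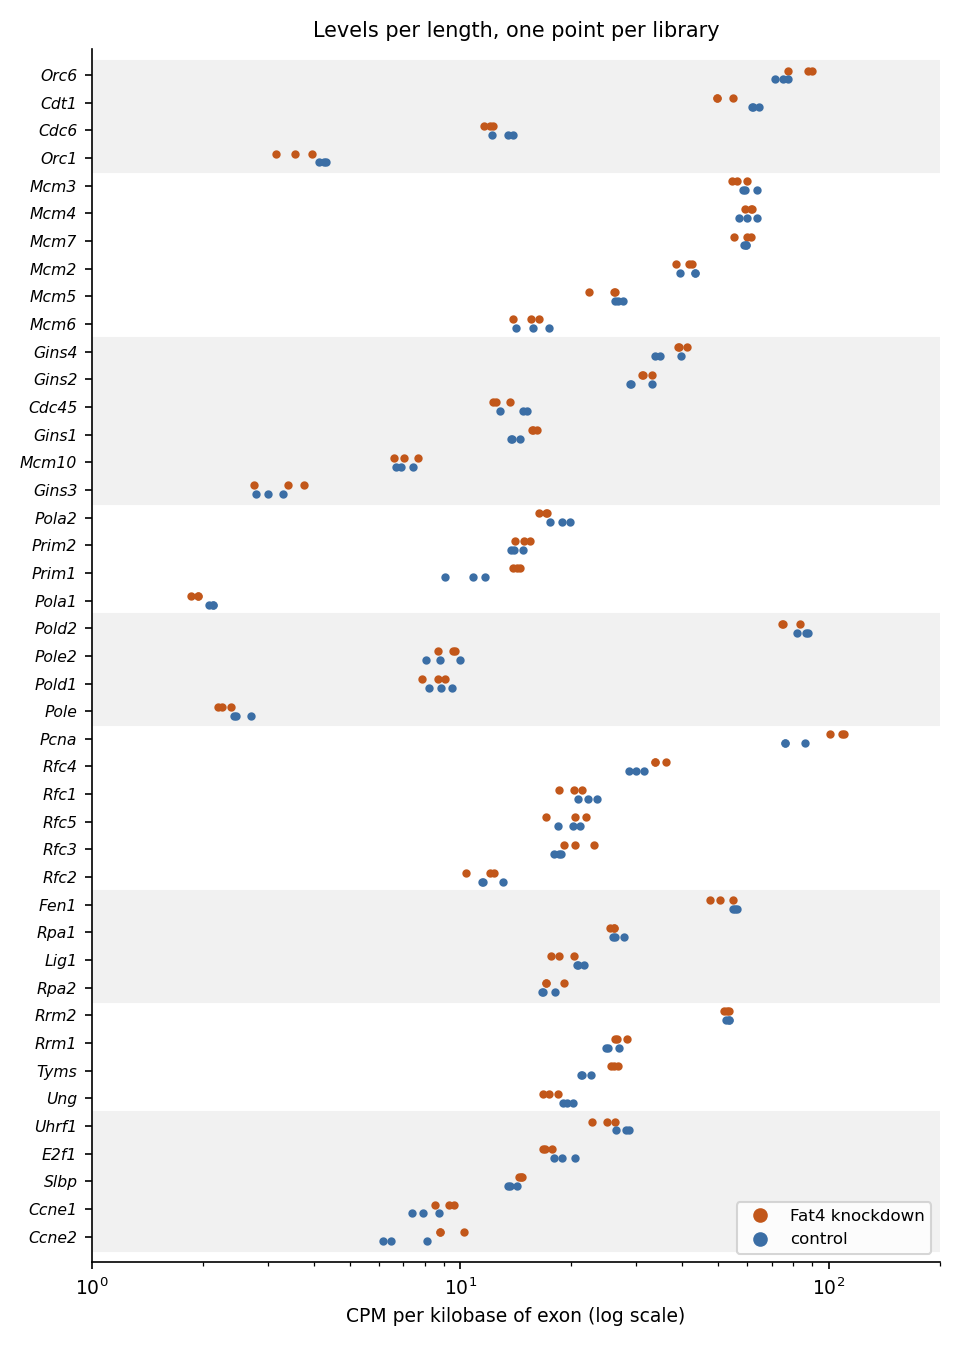
CPM per kilobase of exon (x axis, log scale) of the 43 genes, 1 point per library, with knockdown above control in each row and genes grouped by role. Within a row the groups lie close together beside the spread between genes. Pola1 is lowest, at 1.91 in knockdown and 2.11 in control libraries. Pcna is highest in knockdown libraries (106, against 79.4 in control libraries) and Pold2 is highest in control libraries (85.5, against 77.7 in knockdown libraries).

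Fold changes in these libraries moved with the GC content of the transcripts and the exon length of the genes. Over 12787 tested genes with a GC value, Pearson's r with the log2 fold change was -0.20 for GC percent and -0.25 for log2 exon length; over the 43 members it was -0.53 for GC percent and -0.30 for length. These are correlations across genes of the same 6 libraries, given as a description. After smooth trends of GC and length were taken out of each library, r over the members was -0.29 for GC and -0.08 for length. Among the called members Ccne2 had the lowest GC content of the whole list (36.3%), Rfc4, Prim1, Pcna and Tyms lay between 43.5% and 46.7%, and Cdt1 stood at 57.8%. The corrected log2 fold changes were 0.39 for Prim1, 0.33 for Pcna, 0.31 for Ccne2, 0.28 for Tyms and -0.19 for Cdt1, all still past the threshold (edgeR adjusted p of 0.00247, 0.000653, 0.024, 0.00263 and 0.0307, in the same order of genes). The median over the 43 genes was then 0.013.

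**Figure D5:**
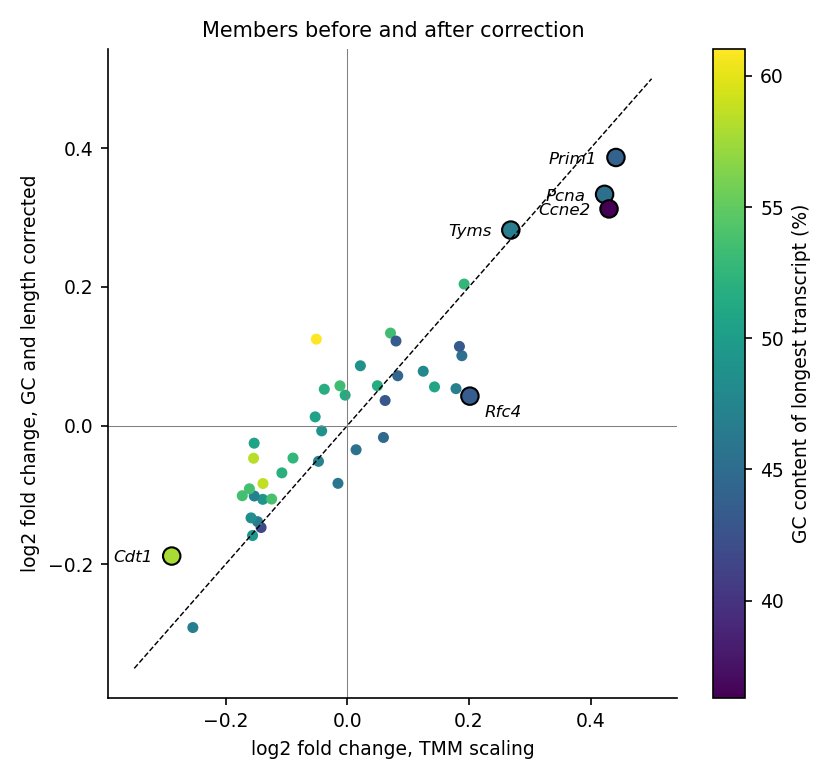
Log2 fold change of the 43 genes, knockdown over control, with TMM scaling (x axis) and after correction for GC content and length (y axis); colour is GC percent, the dashed line marks equality, and the 6 genes past the threshold without correction are ringed and named. Rfc4 drops to 0.04 and Cdt1 moves to -0.19, while Prim1, Pcna, Ccne2 and Tyms stay above 0.28.

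Genes around the replication machinery were read from the same test, in which 17.4% of all genes were called (8.94% higher and 8.44% lower). The lists below are small, and their shares of called genes were not tested against that background. Of 32 other replication factors, 5 rose and none fell (15.6% called), with a median log2 fold change of 0.10; after GC and length correction 1 rose. Orc4, a further subunit of the origin recognition complex, averaged 80.4 ± 4.98 CPM in knockdown and 58.0 ± 7.79 CPM in control libraries (SD, n = 3 each) and rose by 0.47 on the log2 scale (edgeR adjusted p = 0.00255), in all 18 other settings too. Orc5 of the same complex rose by 0.33 (edgeR adjusted p = 0.0175), Pole4, a small subunit of polymerase epsilon, by 0.23 (edgeR adjusted p = 0.0236) and Gmnn, which encodes the Cdt1 inhibitor geminin, by 0.24 (edgeR adjusted p = 0.0363). The fifth, Rpa3, the small subunit of replication protein A, named after its values were seen, rose by 0.39 (edgeR adjusted p = 0.0487), with 77.6, 84.8 and 78.0 CPM in knockdown and 74.5, 59.9 and 49.9 CPM in control libraries. Orc5, Pole4, Gmnn and Rpa3 lost the call after GC and length correction. Orc5 was called in 12 of 18 other settings, and Pole4, Gmnn and Rpa3 in 11 each. In Gmnn the groups overlapped, with 113.9 CPM in knockdown replicate 3 and 114.1 CPM in control replicate 1. Within the origin recognition complex, Orc4 and Orc5 thus rose, while Orc1, Orc6, Orc2 (log2 fold change 0.15, edgeR adjusted p = 0.0971) and Orc3 (0.12, edgeR adjusted p = 0.293) did not pass.

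Of 14 other genes of nucleotide supply, 3 rose and none fell (21.4% called; median log2 fold change 0.08), and 4 rose after GC and length correction, among them Cad (log2 fold change 0.24 with the correction and 0.05 without it). Dtymk, thymidylate kinase, which acts on the product of Tyms, averaged 297 ± 3.78 CPM in knockdown and 239 ± 19.7 CPM in control libraries (SD, n = 3 each) and rose by 0.31 on the log2 scale (edgeR adjusted p = 0.00354). Cmpk1, a nucleoside monophosphate kinase, rose by 0.36 (edgeR adjusted p = 0.00422). Dtymk and Cmpk1 were called in all 18 other settings.

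Of 12 genes of replication-coupled chromatin, 1 rose and 2 fell (25.0% called; median -0.04). H2az1, a histone H2A variant gene, averaged 746 ± 49.3 CPM in knockdown and 559 ± 66.3 CPM in control libraries (SD, n = 3 each) and rose by 0.42 on the log2 scale (edgeR adjusted p = 0.00296). Chaf1a, the large subunit of the CAF-1 histone chaperone, fell by 0.22 (edgeR adjusted p = 0.0261), and Dnmt1, the maintenance DNA methyltransferase that works with Uhrf1, fell by 0.22 (edgeR adjusted p = 0.0325). Both falls were lost after GC and length correction, with log2 fold changes of -0.09 for Chaf1a and -0.08 for Dnmt1.

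Of 30 tested genes of G1 and S control, 1 rose and 1 fell (6.67% called; median -0.05). Ccnd3, cyclin D3, fell by 0.29 on the log2 scale (edgeR adjusted p = 0.00447), and its corrected value was -0.10 (edgeR adjusted p = 0.238). Cdkn1b, the inhibitor p27, rose by 0.23 (edgeR adjusted p = 0.0308), and its corrected value of 0.18 did not pass (edgeR adjusted p = 0.0822). Of 18 fork checkpoint genes, 1 fell and none rose (5.56% called; median -0.03): Brca2, which protects stalled forks, averaged 16.02 ± 0.488 CPM in knockdown and 20.7 ± 1.87 CPM in control libraries (SD, n = 3 each) and fell by 0.37 (edgeR adjusted p = 0.0120).

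Of 24 genes of G2 and mitosis, 3 rose and 1 fell (16.7% called; median -0.03). Mad2l1, of the spindle checkpoint, averaged 172 ± 9.14 CPM in knockdown and 125 ± 14.1 CPM in control libraries (SD, n = 3 each) and rose by 0.46 on the log2 scale (edgeR adjusted p = 0.00112). Cenpa, the centromeric histone, rose by 0.26 (edgeR adjusted p = 0.00886) and Cdk1, the mitotic kinase, by 0.18 (edgeR adjusted p = 0.0483). Bub1b, also of the spindle checkpoint, fell by 0.23 (edgeR adjusted p = 0.0217). Mad2l1 and Cenpa were called in all 18 other settings, Bub1b in 13 and Cdk1 in 9.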

How the data were processed

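Messenger RNA of MCEC cells was converted to cDNA and tagmented, per the labels' protocols. The submitters' processing notes list the GRCm39 build, STAR 2.7.11, MultiQC 1.32, fastp 0.24.0, SAMtools 1.22.1 and FastQC 0.12.1. How reads were counted, on which strand and against which annotation is not stated there. The deposited values are estimated counts per gene, of which 28.96% of those above 0 are not whole (tolerance 1e-06), and CPM values, which as deposited are each count over its library total. Of 78409 rows, 92 are spike-ins, left out here, and 21909 have no symbol (1.016% to 1.439% of counts).

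The deposited estimated counts were rounded and filtered with filterByExpr. After TMM scaling, knockdown was set against control by edgeR (version 4.0.16, R version 4.3.3), using its quasi-likelihood test with robust dispersion and no block, with Benjamini-Hochberg adjustment over 13372 genes and a threshold of 0.05. CPM in the text use TMM-scaled library sizes; SE is the log2 fold change divided by the square root of F, and 95% intervals use the t quantile at edgeR's degrees of freedom. The biological coefficient of variation was 6.31%. Without known strand counting, reads of 20 members whose exons overlap another gene cannot be told apart from that gene's; 27 members had a count that was not whole. Library pairs within a group differed by more than sampling noise (chi-square per degree of freedom 2.64 to 10.3), so all 6 were kept.

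Alternatives were scaling by library size, by RLE or by upper quartile, DESeq2 1.42.0, limma-voom 3.58.1, other filters, symbols on several rows left out, each library left out, a replicate block, a GC and length correction (smooth per-library trends fitted with mgcv 1.9.3, GC by gene identifier from a GRCm38 annotation) and, added after seeing the data, edgeR without robust dispersion. The workflow was tested on simulated data. The members and lists were chosen with earlier results of these data known. Values per library are given for Fat4, for every member past the threshold and for the most highly counted member of each role. Of each other list, up to 4 called genes with the smallest adjusted p are named, with means or fold changes; 1 gene that this rule takes is not reported here, and per-library values of further members were chosen after their values were seen. Promoters are from RefSeq. Protein sequences were not used here.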

Additional observations from a re-analysis of the deposited data

How the results depend on the processing

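Precision is limited by 3 libraries per group and by Fat4 counts of 8.5 to 31.5. Of the 6 called members, Pcna, Prim1 and Tyms were called in all 18 other settings, Cdt1 in 17, Ccne2 in 15 and Rfc4 in 6, and none of the 6 changed direction in these settings. Of the members that did not pass, Mcm2, Mcm7, Pold1, Rfc2 and Rfc5 turned from negative to positive with GC and length correction, and Mcm4 and Pole2 from positive to negative. The cause of the changes below was not tested.

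The 2324 called genes were 1498 with DESeq2 (612 lower) and 1357 with the replicate block plus GC and length correction (553 lower); lower genes numbered 1740 with library-size scaling and 749 with GC and length correction. With 1 library left out at a time, 1029 to 3077 genes were called, 527 to 1624 higher and 502 to 1453 lower; the fewest came without control replicate 2 and the most without control replicate 1. Members called higher numbered 3 with the block plus GC and length correction and 3 to 6 with 1 library left out; members called lower numbered 8 with library-size scaling, 0 with the block plus GC and length correction and 1 to 6 with 1 library left out. The members' median log2 fold change was -0.072 with library-size scaling and 0.013 with GC and length correction, so its sign turned; it was 0.010 with the block added and between -0.042 and 0.0050 with 1 library left out.

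For other replication factors, 3 were higher with library-size scaling and 1 with GC and length correction, with or without the block; leaving out 1 library gave 1 to 6 higher and 0 to 1 lower. For other nucleotide supply, leaving out 1 library gave 0 to 1 lower. For replication-coupled chromatin, 2 were higher with GC and length correction, with or without the block; 1 was lower with DESeq2, 0 with GC and length correction, with or without the block, and 0 to 3 with 1 library left out. For G1 and S control, 0 were higher with library-size scaling, DESeq2, no filter and GC and length correction, with or without the block, and 0 to 1 with 1 library left out; 4 were lower with library-size scaling, 0 with GC and length correction, with or without the block, and 1 to 2 with 1 library left out. For the fork checkpoint, 1 was higher with GC and length correction and 0 to 1 with 1 library left out; 2 were lower with library-size scaling, 0 with DESeq2, 0 with the block plus GC and length correction and 0 to 2 with 1 library left out. For G2 and mitosis, 2 to 5 were higher with 1 library left out; 4 were lower with library-size scaling, 3 with no filter, 0 with the block plus GC and length correction and 0 to 3 with 1 library left out.

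Replicate numbers did not pair the libraries: deviations of same-numbered knockdown and control libraries correlated at -0.20, -0.14 and 0.10 over 9268 genes. The highest correlations were those of knockdown replicate 2 with control replicate 1 (0.23) and of knockdown replicate 1 with control replicate 2 (0.21). With the replicate block alone, 2001 genes were called, among them 4 members higher and 1 lower. The planned search for motifs in protein sequences was not run.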
